A study of Homo sapiens with 6 samples.

Results

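The human alkaline phosphatase family has 4 genes, ALPP, ALPG (older name ALPPL2), ALPI and ALPL, and their transcripts were followed in RT-112 cells, a human bladder cancer line, after silencing of PPP2R2A. PPP2R2A encodes a regulatory subunit of protein phosphatase 2A, an enzyme unrelated in structure to alkaline phosphatases. The members are all probe sets whose symbol in the platform's gene table includes 1 of these genes, which gave 8 of 54675 probe sets and 4 of 19775 genes: 1 probe set for ALPP, 2 for ALPG, 1 shared by ALPG and ALPP, 2 for ALPI and 2 for ALPL. Cells received siRNA 1 against PPP2R2A, siRNA 2 against PPP2R2A, or a scramble siRNA, each at 50 nM and given again after 24 h, with RNA isolated 24 h after the second transfection. Each group had 2 arrays, A and B, which the design text calls technical duplicates of 1 cell line, so spreads and p-values below measure these samples and not separate experiments.

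Alkaline phosphatases are zinc and magnesium enzymes that are tethered to the outer face of the cell membrane by a glycosylphosphatidylinositol (GPI) anchor and remove phosphate from many substrates at alkaline pH. ALPP is made by the syncytiotrophoblast of the placenta, ALPG by germ cells and in traces by placenta, and both are known to appear in some tumours outside these tissues. ALPI sits on the brush border of enterocytes, and ALPL, the tissue-nonspecific form, hydrolyses pyrophosphate in bone and is also found in liver and kidney. The coding sequences of ALPP, ALPG and ALPI are closely related, so that a probe set of one may bind transcripts of another. On these arrays a name ending in _at marks probes designed for 1 transcript, _s_at marks probes shared by several transcripts, and _x_at marks probes that may also bind unrelated sequences.

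ALPP, ALPG and ALPI lie next to each other on chromosome 2 and ALPL lies on chromosome 1. The 250 bases before the start of the first 3 genes, from RefSeq on build GRCh38.p14, are shown because these genes are so alike in sequence while their probe sets read differently. Capitals mark runs of at least 10 bases found in all 3 windows.
ALPP, chr2:232378501-232378750, plus strand: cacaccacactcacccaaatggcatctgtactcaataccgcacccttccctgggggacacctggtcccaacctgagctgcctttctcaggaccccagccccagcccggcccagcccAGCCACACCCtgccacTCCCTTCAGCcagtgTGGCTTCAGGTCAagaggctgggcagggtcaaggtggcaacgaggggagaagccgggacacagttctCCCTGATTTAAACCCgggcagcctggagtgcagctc
ALPG, chr2:232406594-232406843, plus strand: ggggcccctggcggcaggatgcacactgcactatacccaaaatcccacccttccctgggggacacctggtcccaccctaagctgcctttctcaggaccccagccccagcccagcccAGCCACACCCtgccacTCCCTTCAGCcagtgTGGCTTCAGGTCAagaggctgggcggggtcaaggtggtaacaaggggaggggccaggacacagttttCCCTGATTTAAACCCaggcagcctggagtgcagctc
ALPI, chr2:232455903-232456152, plus strand: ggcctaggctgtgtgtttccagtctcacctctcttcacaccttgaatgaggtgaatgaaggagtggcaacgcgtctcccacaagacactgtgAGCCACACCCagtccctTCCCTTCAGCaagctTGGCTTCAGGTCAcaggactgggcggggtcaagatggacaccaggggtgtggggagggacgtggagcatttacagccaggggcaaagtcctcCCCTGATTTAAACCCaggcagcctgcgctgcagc
The ALPP and ALPG windows were identical at 92.7% of 234 aligned bases, against 79.4% of 214 for ALPP and ALPI and 80.9% of 209 for ALPG and ALPI. The shared runs were AGCCACACCC, TCCCTTCAGC, TGGCTTCAGGTCA and CCCTGATTTAAACCC. The last, of 15 bases, lies 36 to 22 bases before the ALPP start and holds TTTAAA. On either strand TTTAAA occurs in 11.4% of 27305 promoter windows of this length. AGGTCA, a site bound by nuclear receptors, occurs once in each of the 3 windows and in 12.1% of all windows. GGGCGG, the GC box, occurs in ALPG and ALPI but not in ALPP, and in 42.3% of all windows. The motifs were chosen after the sequences were seen, and a match or its lack describes only these letters. All 4 genes had windows, ALPL with 3, of which 1 held TATAAA and 1 held GGGCGG.

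Signals are linear intensities scaled by the authors, with array medians of 69.3 to 76.2. No detection calls came with them, so each signal was read against its array's median, a level that lies within the range of dim probe sets. PPP2R2A, the silenced gene, kept 24.7% of its scramble signal with siRNA 1 and 35.1% with siRNA 2 on its brightest probe set. Another probe set kept 20.6% and 24.6%, whereas a further one, also above the array median on all arrays, kept 97.7% and 79.6%, and the last was dim on all arrays. ACTB probe sets at the 3' end read brighter than those at the 5' end by a factor, tied to RNA quality, of 6.52 and 7.82 with siRNA 1 and 7.47 and 12.4 with siRNA 2, against 5.43 and 5.94 with scramble. That factor was higher on the knockdown arrays, and its part in the values below was not tested. For GAPDH it was between 0.943 and 1.02 on all arrays.

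The 1 probe set of the family that differed widely between knockdown and scramble arrays was 204664_at, the probe set of ALPP alone. Its signal was 125 and 194 with siRNA 1 and 198 and 226 with siRNA 2, against 13.0 and 6.48 with scramble. All 4 knockdown arrays lay above both scramble arrays, which held for 1 of 8 probe sets of the family above and 0 of 8 below, against 9.28% and 8.97% of all probe sets. Relative to the array median the signal was 1.78 and 2.55 times with siRNA 1 and 2.63 and 3.26 times with siRNA 2, against 0.184 and 0.085 times with scramble. On this probe set ALPP therefore stood modestly above the middle of the array with either siRNA and far below it with scramble. The difference from scramble on the log2(signal + 1) scale was 3.94 with siRNA 1 (SE 0.55, n = 2 per group) and 4.38 with siRNA 2 (SE 0.46, n = 2 per group). ALPP was picked for this pattern, so these differences are descriptions and carry no test.

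The size of the ALPP difference rests on 2 scramble signals at the dim end of the array. The scramble duplicates differed by 0.907 on the log2(signal + 1) scale. Among the 15280 probe sets with a mean scramble signal under 25, the duplicates differed by a median of 0.908 and by 2.97 at the 95th percentile on that scale. With every signal under its array's median set to that median, 204664_at was at least 2.12-fold higher with siRNA 1 than with scramble. With siRNA 2 it was at least 2.88-fold higher. With a pseudocount of 16 in place of 1 the log2 difference was 2.75 with siRNA 1 and 3.16 with siRNA 2. By log2 difference ALPP ranked 3rd of 54613 probe sets with siRNA 1 and 1st with siRNA 2. A difference of at least 3 on that scale was seen for 59 probe sets with siRNA 1, for 50 with siRNA 2 and for 10 with both. Of all probe sets, 133 (0.244%) lay below the array median on both scramble arrays and above it on all 4 knockdown arrays, as ALPP did, and 132 (0.242%) lay the other way round.

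The order of ALPP levels was siRNA 2, siRNA 1 and scramble. Both siRNA 1 arrays read below both siRNA 2 arrays, the nearest pair being 194 and 198. The log2 difference siRNA 1 minus siRNA 2 was -0.44. In size it was smaller than the 0.625 between the siRNA 1 duplicates and larger than the 0.192 between the siRNA 2 duplicates. Whether the 2 siRNAs differ in ALPP was not tested.

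**Figure D1:**
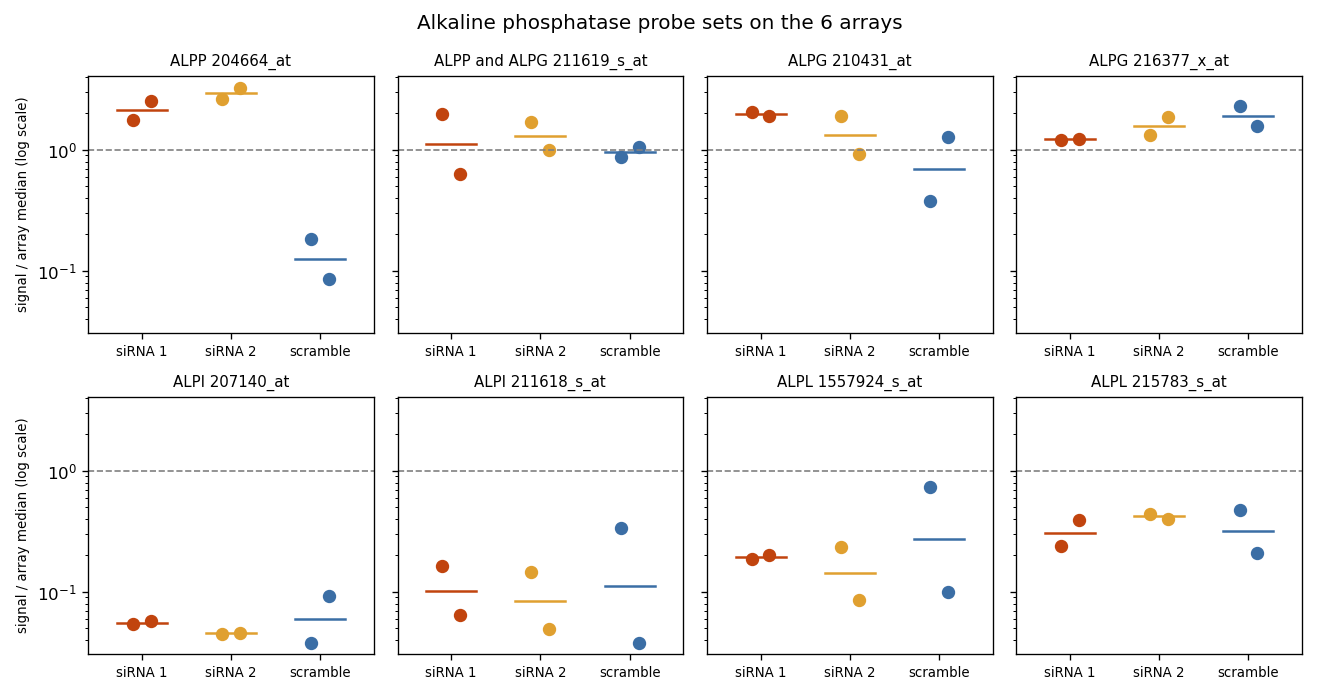
Signal divided by the array median (log scale) for the 8 alkaline phosphatase probe sets, with a point per array and a bar at the geometric mean of siRNA 1, siRNA 2 and scramble (2 arrays each); the dashed line is the array median. ALPP 204664_at lies at 1.78 to 3.26 times the median on the knockdown arrays and at 0.085 to 0.184 times on the scramble arrays, while both ALPI and both ALPL probe sets stay below the line on every array.

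The probe set shared by ALPP and ALPG, 211619_s_at, did not show this pattern. Its signal was 140 and 48.4 with siRNA 1 and 129 and 69.5 with siRNA 2, against 61.3 and 81.1 with scramble. The groups overlapped with either siRNA, the siRNA 1 duplicates alone spanning all other arrays. The log2 difference from scramble was 0.23 (SE 0.78) with siRNA 1 and 0.42 (SE 0.48) with siRNA 2, n = 2 per group, both smaller than their errors. The 2 probe sets that name ALPP thus gave different pictures, and the files do not say which probes each contains.

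The 2 probe sets of ALPG alone differed from each other. With siRNA 1 one lay above both scramble arrays and the other below both, while with siRNA 2 both overlapped scramble. On 210431_at the signal was 146 and 145 with siRNA 1 and 144 and 64.4 with siRNA 2, against 26.9 and 98.0 with scramble. Both siRNA 1 arrays lay above both scramble arrays, whereas 1 siRNA 2 array lay between the scramble duplicates. The log2 difference was 1.48 (SE 0.92) with siRNA 1 and 0.89 (SE 1.08) with siRNA 2, n = 2 per group, and the scramble duplicates differed by 1.83. For probe sets with a mean scramble signal from 50 to 100 the 95th percentile of that log2 difference was 1.82, just under the value seen here. Without scramble A the difference was 0.56 with siRNA 1 and -0.03 with siRNA 2.

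On 216377_x_at, the other ALPG probe set, the signal was 85.1 and 93.8 with siRNA 1 and 99.7 and 130.0 with siRNA 2, against 162 and 119.8 with scramble. It was the 1 member above the array median on all 6 arrays. Both siRNA 1 arrays lay below both scramble arrays, and 1 siRNA 2 array lay between them. The log2 difference was -0.64 (SE 0.23) with siRNA 1 and -0.29 (SE 0.29) with siRNA 2, n = 2 per group. Its probes may bind unrelated transcripts, so a level of ALPG cannot be read from it alone.

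ALPI, the intestinal form, was dim throughout. On 207140_at it read 3.84 and 4.34 with siRNA 1 and 3.35 and 3.17 with siRNA 2, against 2.72 and 7.11 with scramble. On 211618_s_at it read 11.5 and 4.91 with siRNA 1 and 10.9 and 3.38 with siRNA 2, against 23.7 and 2.88 with scramble. The scramble duplicates enclosed every knockdown array on both probe sets, and all 12 signals were below the array median. The log2 differences were between -0.44 and -0.11, within errors of 0.56 to 1.52.

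ALPL, the tissue-nonspecific form, was likewise below the array median on all 6 arrays with both of its probe sets. On 1557924_s_at it read 13.3 and 15.3 with siRNA 1 and 17.8 and 5.94 with siRNA 2, against 52.5 and 7.52 with scramble. On 215783_s_at it read 16.9 and 29.7 with siRNA 1 and 33.1 and 27.8 with siRNA 2, against 33.5 and 16.1 with scramble. The groups overlapped on both, and a difference was not detectable at these signals. The log2 differences were -0.48 (SE 1.33) and -0.90 (SE 1.51) on 1557924_s_at, and -0.05 (SE 0.64) and 0.37 (SE 0.52) on 215783_s_at, with siRNA 1 and siRNA 2 in turn and n = 2 per group.

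**Figure D2:**
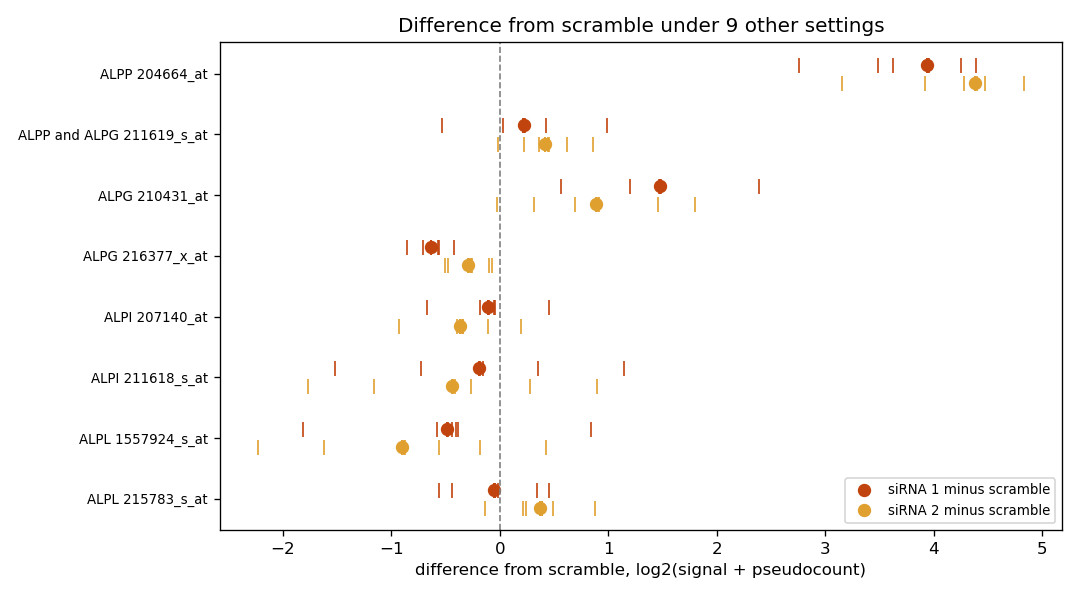
Difference from scramble on the log2 scale for each of the 8 probe sets, with siRNA 1 (red) and siRNA 2 (yellow); the large point is the value with all arrays and a pseudocount of 1, and the ticks are 9 other settings (quantile normalization, median centring, a pseudocount of 16, and each array left out). ALPP 204664_at stays between 2.75 and 4.83, and 216377_x_at stays below 0, while the probe sets of ALPI and ALPL have ticks on both sides of 0.

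Over the family, siRNA 1 arrays lay above both scramble arrays on 2 of 8 probe sets and below both on 1 of 8, against 19.9% and 20.1% of all probe sets. With siRNA 2 the counts were 1 of 8 above and 0 of 8 below, against 20.4% and 21.4% of all probe sets. The members were chosen on these arrays, and 4 of the 8 passed the filter used for testing, which asks for a signal above the array median on at least 2 arrays. ALPP passed it only through its knockdown arrays. The other 4, both of ALPI and both of ALPL, passed on no array.

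Duplicates differed most at dim signals. How much of the members' differences from scramble this spread makes up was not tested. In the scramble group the 95th percentile of the log2 difference between duplicates was 2.97 for probe sets with a mean signal under 25, 2.89 from 25 to 50, 1.82 from 50 to 100, 0.965 from 100 to 200 and 0.39 above 400. The siRNA 1 and siRNA 2 duplicates gave 2.94 and 2.89 for the dimmest class. The ALPI probe set 211618_s_at differed by 2.67 between scramble duplicates and the ALPL probe set 1557924_s_at by 2.65.

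**Figure D3:**
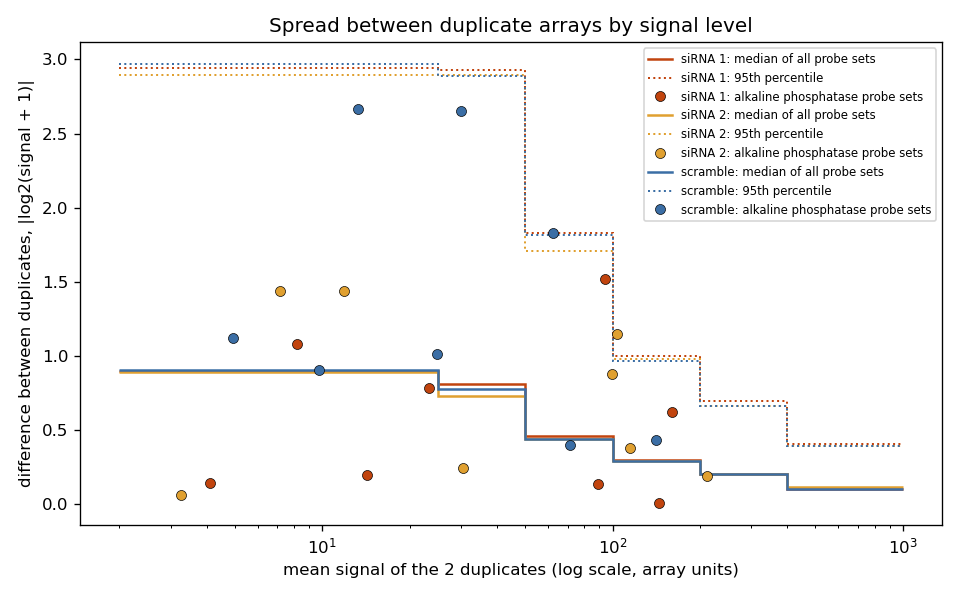
Difference between duplicate arrays, as the absolute difference in log2(signal + 1), against their mean signal (log scale): steps are the median (solid) and 95th percentile (dotted) over all probe sets in 6 signal classes per group, the lowest class starting at 0 and the highest open above 400, and points are the 8 alkaline phosphatase probe sets in each group. The steps fall with signal, the scramble median being 0.908 under 25 and 0.104 above 400, and the members all lie at mean signals of 212 or less.

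Among 12734 other tested genes, the profile nearest to ALPP 204664_at over the 6 arrays was that of TMEM31, a predicted transmembrane protein gene, with a root mean square difference of 0.68 between the centred log2 profiles. TMEM31 read 35.1 and 76.4 with siRNA 1 and 37.9 and 80.1 with siRNA 2, against 6.12 and 5.64 with scramble. IFI44L, an interferon-induced gene, came next at 0.84, with 572 and 493 with siRNA 1 and 578 and 539 with siRNA 2, against 80.4 and 92.9 with scramble. The other 6 were PMS2P2, KRTCAP3, PLEKHN1, LRIG1, LOC105374690 and LSAMP-AS1, at 1.12 to 1.23. All but IFI44L read below the array median on both scramble arrays, as ALPP did. Only IFI44L, KRTCAP3 and LSAMP-AS1 were above it on all 4 knockdown arrays, as ALPP was. TMEM31 and LRIG1 were above it on 2 of these arrays, and PMS2P2, PLEKHN1 and LOC105374690 on 3. All but IFI44L, being below the median with scramble, passed the filter only through knockdown arrays. Among such genes the filter favours profiles like that of ALPP. All 8 share with ALPP the same 6 arrays and the same scramble samples, so the likeness is a description.

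**Figure D4:**
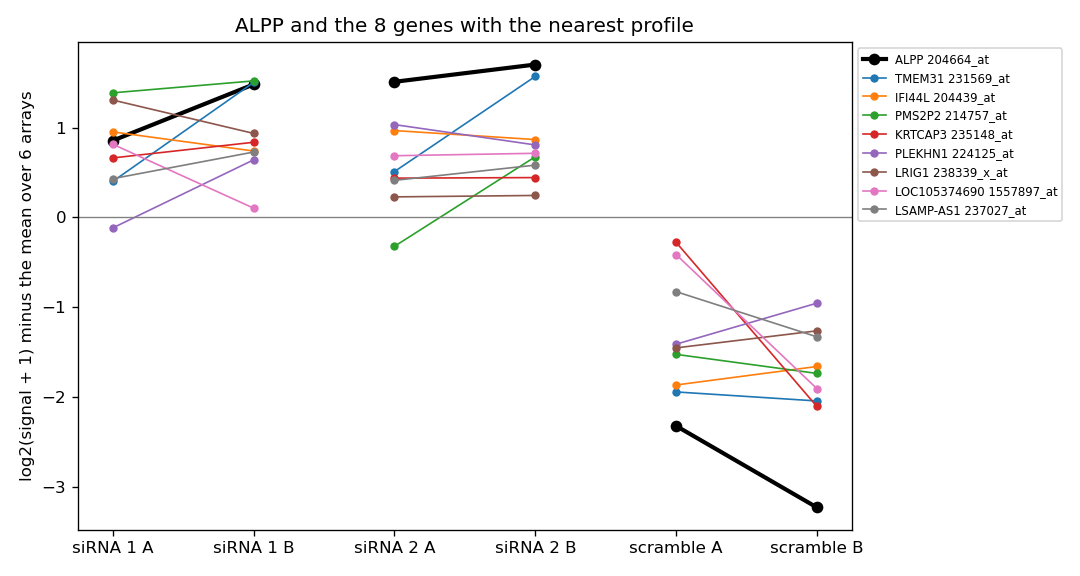
log2(signal + 1) minus its mean over the 6 arrays for ALPP 204664_at (black) and the 8 genes with the nearest profile; lines join the duplicates of a group. The scramble arrays are low in all 9 profiles, and ALPP differs from scramble by 3.94 and 4.38, a width set by scramble signals far below the array median (1.09 and 1.53 with signals under the median set to it).

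The genes beside the family on the chromosome were not called by limma, the test used for all other genes here (adjusted p under 0.05 over all 12735 genes tested and a change of at least 1.5-fold). That rule called 0.393% of genes with siRNA 1 (0.212% higher, 0.181% lower) and 0.597% with siRNA 2 (0.44% higher, 0.157% lower). An unadjusted p under 0.05 was far more common, at 16.2% of all genes with siRNA 1 (9.55% higher, 6.65% lower) and 20.8% with siRNA 2 (12% higher, 8.76% lower), and the unadjusted counts that follow stand against these shares. Of the 6 protein-coding genes nearest to ALPP, ALPG and ALPI, COPS7B, a subunit of the COP9 signalosome, and DIS3L2, an RNA exonuclease, were tested. Limma called 0 of these 2, with 0 and 1 (DIS3L2) at an unadjusted p under 0.05 with siRNA 1 and siRNA 2. COPS7B had log2 differences of 0.14 and 0.05. DIS3L2 read 252 and 273 with siRNA 1 and 349 and 272 with siRNA 2, against 201 and 238 with scramble. Its log2 difference of 0.49 with siRNA 2 had a limma adjusted p = 0.199. NPPC, ECEL1 and CHRND read at most 20.3 on any array, and PRSS56 was not analysed here. Of the 6 genes nearest to ALPL, 4 were tested and 0 called by limma, with 0 and 1 at an unadjusted p under 0.05 with siRNA 1 and siRNA 2. ECE1, which activates endothelin, had log2 differences of 0.30 and 0.40, NBPF3 of 0.09 and 0.55, and USP48, a ubiquitin protease, of 0.12 and 0.21. RAP1GAP, a regulator of the GTPase RAP1, read 144 and 19.5 with siRNA 1 and 254 and 142 with siRNA 2, against 90.7 and 37.5 with scramble (limma adjusted p = 0.966 and 0.433). EIF4G3 and LDLRAD2 were not analysed here.

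Genes that serve alkaline phosphatases or share their substrates were followed as 7 lists with 69 genes tested in all, of which 1 was called with siRNA 1 and 0 with siRNA 2 by limma. At an unadjusted p under 0.05 there were 10 and 14 of the 69, against 16.2% and 20.8% of all genes. All 28 measured genes of GPI anchor synthesis and transfer were above the array median on all 6 arrays, and 0 were called. Their median log2 difference was 0.03 with siRNA 1 and 0.05 with siRNA 2, against 0.01 and 0.02 over all genes tested. PIGN, which adds ethanolamine phosphate to the anchor, read 1096 and 1176 with siRNA 1 and 844 and 888 with siRNA 2, against 669 and 891 with scramble (limma adjusted p = 0.221 and 0.612). PIGZ, a mannosyltransferase of the pathway, stood at log2 differences of -0.47 and -0.26, PIGX at -0.22 and -0.32 and PIGO at 0.13 and 0.41. With siRNA 1 limma gave 1 higher and 2 lower at an unadjusted p under 0.05, and with siRNA 2 it gave 2 higher and 1 lower.

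The zinc transporters of the secretory pathway, which load zinc into alkaline phosphatases, were measured for all 3 genes and 0 were called by limma (0 and 1 at an unadjusted p under 0.05). SLC30A5 read 2252 and 2254 with siRNA 1 and 2052 and 1943 with siRNA 2, against 2347 and 2390 with scramble. SLC30A6 lay at log2 differences of -0.01 and 0.15, and SLC30A7 at 0.09 and -0.19.

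Of the pyrophosphate and phosphate genes 7 of 11 were tested and 0 called by limma, with 1 and 1 at an unadjusted p under 0.05. ENPP3, an ectoenzyme that cleaves nucleotide pyrophosphates, read 60.1 and 77.4 with siRNA 1 and 59.8 and 83.1 with siRNA 2, against 32.3 and 25.02 with scramble. Its knockdown arrays lay above both scramble arrays, which held for 9.28% of all probe sets. The log2 differences were 1.23 and 1.28 (limma adjusted p = 0.127 and 0.0838). ENPP3 was above the array median on 2 of 6 arrays, siRNA 1 B and siRNA 2 B. It thus passed the filter only through the arrays on which it read highest, both of them knockdown arrays. The name of its probe set ends in _x_at, so its probes may also bind unrelated sequences. XPR1, a phosphate exporter, and the pyrophosphatases PPA1 and PPA2 had log2 differences between -0.25 and 0.02.

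Of the extracellular nucleotide genes 8 of 10 were tested and 0 called by limma, with 1 and 0 at an unadjusted p under 0.05. NT5E, the GPI-anchored nucleotidase CD73 that makes adenosine, read 521 and 490 with siRNA 1 and 458 and 386 with siRNA 2, against 397 and 377 with scramble (limma adjusted p = 0.230 and 0.610). ENTPD1, ENTPD2 and SLC29A2 had log2 differences of 0.81, 0.39 and -0.49 with siRNA 1 and 1.42, 0.26 and -0.33 with siRNA 2, and each overlapped scramble with at least 1 siRNA. Of 7 acid phosphatases 5 were tested and 0 called by limma, with 1 and 0 at an unadjusted p under 0.05. ACP3, prostatic acid phosphatase, read 508 and 593 with siRNA 1 and 268 and 312 with siRNA 2, against 325 and 395 with scramble. Its difference between the siRNAs was 0.92 on the log2 scale (limma adjusted p = 0.0910). ACP2, ACP4 and ACP6 had log2 differences between -0.07 and 0.25.

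The 1 call in these lists was PLPBP, which binds pyridoxal phosphate, a substrate of ALPL, and was the only 1 of 4 vitamin B6 genes tested. It fell to 533 and 594 with siRNA 1, against 1132 and 1192 with scramble (log2 difference -1.04, limma adjusted p = 0.0484). With siRNA 2 it read 1196 and 1214 (log2 difference 0.05, limma adjusted p = 0.791). The call was kept in 4 of 15 other settings, and in none that left out an array.

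Other GPI-anchored surface proteins had 18 of 20 genes tested and 0 called by limma. At an unadjusted p under 0.05 there were 2 higher and 2 lower with siRNA 1, and 0 higher and 9 lower with siRNA 2, against 6.65% of all genes lower with siRNA 1 and 8.76% with siRNA 2. The median log2 difference was -0.06 and -0.21, against 0.01 and 0.02 over all genes. BST2, an interferon-induced tether of viruses, read 181 and 121 with siRNA 1 and 159 and 103 with siRNA 2, against 95.5 and 63.6 with scramble (limma adjusted p = 0.298 and 0.326). CEACAM6, an adhesion molecule, stood at log2 differences of -0.43 and -0.55, PSCA, prostate stem cell antigen, at -0.18 and -0.56, and PRSS8, the protease prostasin, at 0.53 and 0.26.

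**Figure D5:**
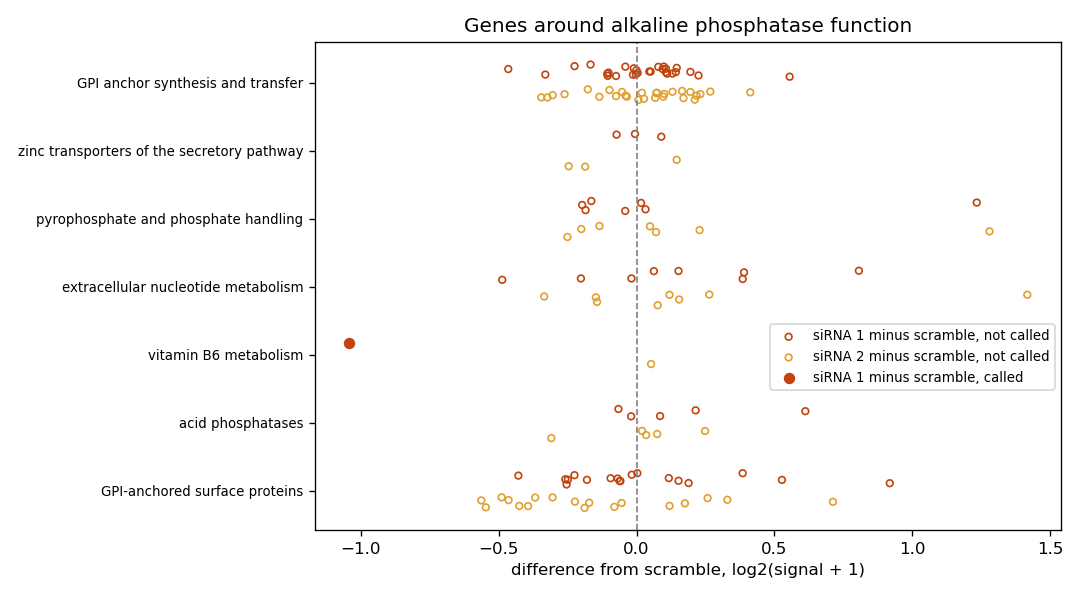
Difference from scramble on the log2(signal + 1) scale for each tested gene of 7 lists, with siRNA 1 (red) and siRNA 2 (yellow); filled points were called by limma. The only filled point is PLPBP with siRNA 1 at -1.04, and the GPI anchor genes lie between -0.47 and 0.56.

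Markers of the tissues that normally make alkaline phosphatases ranged from dim to bright. Of 17 trophoblast markers measured, 8 were below the array median on all 6 arrays, among them CGA, the alpha subunit of chorionic gonadotropin, and CSH1, placental lactogen. The 6 above it on all arrays were the transcription factors TFAP2C, TFAP2A, TEAD4 and GATA2 and 2 placental products, HSD3B1, an enzyme of progesterone synthesis, and PAPPA, a secreted protease. HSD3B1 read 133 and 138 with siRNA 1 and 84.6 and 93.6 with siRNA 2, against 103 and 90.3 with scramble. PAPPA read 116 and 101 with siRNA 1 and 109 and 99.8 with siRNA 2, against 90.2 and 127 with scramble. The summed trophoblast signal was 7702.5 and 7979 with siRNA 1 and 8122 and 8268 with siRNA 2, against 7653 and 7631 with scramble. Most of that sum was TFAP2C and TFAP2A, TFAP2C alone reading 3844 and 3770 with siRNA 1 and 4113 and 4506 with siRNA 2, against 3702 and 3586 with scramble. Limma called 0 of 7 tested trophoblast markers (1 and 1 at an unadjusted p under 0.05). Of 9 germ cell markers, 8 were below the median on all arrays and 0 could be tested. The other, NANOG, was above it on 1 array. NANOG read 48.5 and 14.4 with siRNA 1 and 101 and 57.8 with siRNA 2, against 6.89 and 27.4 with scramble. Of 10 enterocyte genes 5 were below the array median on all arrays. KLF4, a factor known to activate ALPI, read 6660 and 6945 with siRNA 1 and 5003 and 5157 with siRNA 2, against 4696 and 4178 with scramble (limma adjusted p = 0.0840 and 0.324). Limma called 0 of the 4 tested enterocyte genes (1 and 1 at an unadjusted p under 0.05). Their median log2 difference was 0.47 with siRNA 1 and -0.32 with siRNA 2, so KLF4 does not stand for the list. Of 7 osteoblast markers 3 were below the array median on all arrays, while RUNX2 and COL1A1 were above it on all. Limma called 0 of the 3 tested osteoblast markers (0 and 1 at an unadjusted p under 0.05). Of 14 urothelial and epithelial markers, 11 were above the median on all 6 arrays, with the uroplakin UPK3A below it on all. Limma called 0 of the 12 tested, with 0 higher and 2 lower with siRNA 1 and 0 higher and 7 lower with siRNA 2 at an unadjusted p under 0.05, against 6.65% and 8.76% of all genes lower. Their summed signal was 145150 and 150410 with siRNA 1 and 126140 and 133480 with siRNA 2, against 153510 and 148470 with scramble. Bright genes carry that sum and dim ones hardly enter it. With scramble the keratin KRT7 read 30368 and 28116, and the uroplakin UPK2 139 and 154.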

How the data were processed

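RNA of 6 samples was labelled with biotin and hybridised to 1-colour oligonucleotide arrays. The authors deposited 1 table with an intensity on a linear scale for each probe set, and the submitters' processing notes name Affymetrix Expression Console, with no version or algorithm. From the values, the mean signal trimmed by 2% in each tail was 500.067 to 500.07 on every array. Precision is limited by having 6 arrays.

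Groups came from the sample titles. Symbols came from the platform's gene table, and of 41091 probe sets with 1 symbol 41037 matched a RefSeq gene. For tests, values were taken as log2(signal + 1), and each gene by its brightest probe set, provided that 2 or more arrays put it over their median signal, and 12735 genes remained. Groups were compared with limma 3.58.1 (a coefficient per group, eBayes, Benjamini-Hochberg adjustment; R 4.3.3), tested on simulated data first. Sequences were aligned with Biopython 1.88.

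The members, gene lists, motifs and settings were chosen with earlier results of these data known, and members get no test. Named were all members, the silenced gene, called list genes and up to 4 per list with the largest mean change, 3 neighbours on each side of a locus, and the 8 nearest profiles. KLF4, CGA, CSH1, TFAP2C, TFAP2A, TEAD4, GATA2, NANOG, RUNX2, COL1A1, KRT7, UPK2 and UPK3A were given values or named after these were seen. Duplicates with the same letter did not deviate together (correlations of -0.03 to 0.04), so the letter was not used as a block.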

Additional observations from a re-analysis of the deposited data

Results flagged for a closer look

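PLPBP, which binds pyridoxal phosphate, differed between the siRNAs by the limma test of that difference. Its log2 difference siRNA 1 minus siRNA 2 was -1.10 (limma adjusted p = 0.04998), with 533 and 594 with siRNA 1 against 1196 and 1214 with siRNA 2. That p lies just under the threshold of 0.05, and no other setting is given for this comparison. Against scramble, the PLPBP call with siRNA 1 was kept in 4 of 15 other settings. Both siRNA 1 arrays lay below all 4 other arrays. Groups of 2 arrays are too small for a test of single outlying samples.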

How the results depend on the processing

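The log2 difference of ALPP 204664_at kept its direction in all 9 settings fixed with the design. ALPP was picked with every knockdown array far above both scramble arrays, so its direction had no room to change and is no support. Leaving out an array of the other siRNA left the value unchanged. The size moved to 2.75 with siRNA 1 and 3.16 with siRNA 2 at a pseudocount of 16. With signals under the array median set to it, a setting added after seeing the data, the log2 difference was 1.09 and 1.53. Leaving out 1 array gave 3.49 to 4.39 with siRNA 1 and 3.92 to 4.83 with siRNA 2. The shared probe set 211619_s_at spanned -0.53 to 0.98 for siRNA 1 and -0.02 to 0.86 for siRNA 2. ALPG 210431_at spanned 0.56 to 2.39 and -0.03 to 1.80, the low ends without scramble A. ALPG 216377_x_at spanned -0.85 to -0.42 and -0.51 to -0.07.

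For siRNA 1 and siRNA 2 limma called 50 genes (27 higher, 23 lower) and 76 (56 higher, 20 lower). With quantile normalization the siRNA 1 count was 33 (17 higher), with median centring 11 (5 higher) and 1 (1 higher), and with a pseudocount of 16 the siRNA 2 count was 162 (104 higher). Above the 75th percentile there were 280 (168 higher) and 389 (234 higher), while letting the prior variance follow intensity gave 299 (175 higher) and 472 (292 higher). Limma called 0 for either siRNA without a filter, with all probe sets, with the mean of probe sets, with the replicate block, and without each of the 6 arrays, where a lone array was assumed to vary like the others. In these settings 1371 to 3804 features had an unadjusted p under 0.05 with siRNA 1 and 1728 to 4917 with siRNA 2. The cause was not tested. In the gene lists around alkaline phosphatases, 1 acid phosphatase was called besides PLPBP, higher with siRNA 1 above the 75th percentile. Among the marker lists, 1 enterocyte gene was called higher with siRNA 1 in 2 of 15 other settings. In the urothelial and epithelial list, 1 gene was called lower with siRNA 1 in 2 settings. With siRNA 2, 1 was called lower in each of 3 settings, not the gene called with siRNA 1. Signals near or below the array median limit every statement on ALPI, ALPL and ALPP in scramble cells.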
